A study of Danio rerio with 56 samples.

Results

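Cone opsins are the light-absorbing proteins of cone photoreceptors, the cells of daylight and colour vision, and zebrafish carry a set of 8 of them. They were found by symbol, with case ignored, in the table of raw counts of 32520 genes. Of the 8, 7 were listed under their own symbol, and opn1sw1 was taken from the gene listed as OPN1SW (ENSDARG00000045677), a symbol without the copy number.

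Zebrafish of strain AB were taken whole at ages of 2, 8, 16, 32 and 64 d, and each library came from the polyadenylated RNA of 25 fish pooled together. Fish were exposed to exemestane at 10 µg/L (EM), to 17β-estradiol at 100 ng/L (E2), to both at those levels (EM+E2), or to the solvent DMSO alone. Exemestane inhibits aromatase, the enzyme that turns androgens into oestrogens, and estradiol is the main oestrogen, so the design asks how losing and restoring oestrogen acts on growing fish. All groups shared the strain, the rearing temperature and the light cycle, and the labels give no sex, so a pool may mix sexes. Of 56 libraries in 20 groups, 55 were used, and a group had 3 of them. The exceptions were the EM+E2 and DMSO groups of 2 d and the 3 exposed groups of 64 d, which had 2 each. The total per library ranged between 4039030 and 10144213 reads. Levels are given as CPM (reads of the gene over all reads of its library, scaled to the usual total), so they are shares of the RNA of the whole body. In such pools, fewer photoreceptors per fish, less opsin RNA per photoreceptor and more RNA from the rest of the body cannot be told apart. Nothing in the labels tells if pools shared a tank, so a p-value here weighs a difference against library spread alone, which may be technical.

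An opsin binds a vitamin A derivative, and light absorbed by that pigment starts a cascade through transducin and a phosphodiesterase that closes the channels of the outer segment. Zebrafish cones are of 4 kinds, with the ultraviolet pigment opn1sw1, the blue pigment opn1sw2, the green pigments opn1mw1 to opn1mw4 and the red pigments opn1lw1 and opn1lw2. The fish retina grows throughout life by adding cells at its rim, and the green and red copies are known to be used in different retinal zones and at different ages, with opn1mw1, opn1mw2 and opn1lw2 before opn1mw3, opn1mw4 and opn1lw1. In the supplied RefSeq table (assembly GRCz12tu, used for order only) the 4 green opsins lay side by side in number order on chromosome 6. On chromosome 11, opn1sw2, opn1lw1 and opn1lw2 followed each other, while opn1sw1 was on chromosome 4. Reads of such close copies may be split among them or lost, depending on how they were counted.

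A pair of libraries stood apart before any comparison was made. The library labelled E2 2 d replicate 1 held 2509 CPM of opn1sw1, while the other 2 E2 libraries of 2 d held 0.217 and 12.9 CPM. Its log2 levels correlated best with E2 16 d replicate 1 (r = 0.985), against 0.918 for its best partner of 2 d. Their counts differed by a chi-square of 3.65 per gene, below the lowest value of 7.99 found among 50 pairs of replicates. That library goes against its label, and each result at 2 d that rests on it is given with and without it. The library DMSO 32 d replicate 2 held 1155 CPM of cone opsins in all, against 285 and 240.0 CPM in the other 2 libraries of its group, and its summed cone phototransduction list stood at 4929 CPM, against 1167 and 949 CPM.

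The deposited normalized table was made from other counts of the same libraries, from which whole reads could be recovered, and its opsin reads differed from the raw table gene by gene. The ratio of raw to recovered reads was divided by the median of that ratio over all genes of the library, so it is not a ratio of CPM. So scaled, it had a median of 1.18 for opn1sw1, 1.13 for opn1mw1, and 1.05 for both opn1mw3 and opn1mw4. The median was 1.91 for opn1mw2 (1.44 to 14.1 between libraries), 0.364 for opn1sw2 (0.0809 to 0.871), 0.327 for opn1lw1 and 0.237 for opn1lw2 (0.0283 to 0.520). Those 4 opsins are therefore given from both tables where it matters, and no level is compared between opsins, since gene lengths were not used.

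The opsins came on in an order. At 2 d no cone opsin had 10 or more reads in more than 4 of the 9 libraries left after E2 2 d replicate 1. By 8 d opn1sw1, opn1sw2, opn1mw1, opn1mw2 and opn1lw2 each had 10 or more reads in 12 of 12 libraries. The other 3 opsins, opn1mw3, opn1mw4 and opn1lw1, first reached 10 reads in most libraries at 32 d. Fewer reads came earlier. For opn1lw1, 11 of 12 libraries had a read at 16 d (100 reads in all) and 4 of 12 at 8 d (16 in all). In the recovered reads opn1lw2 reached 10 reads in most libraries at 2 d and opn1mw4 at 64 d, and the other opsins at the same ages as in raw counts.

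**Figure D1:**
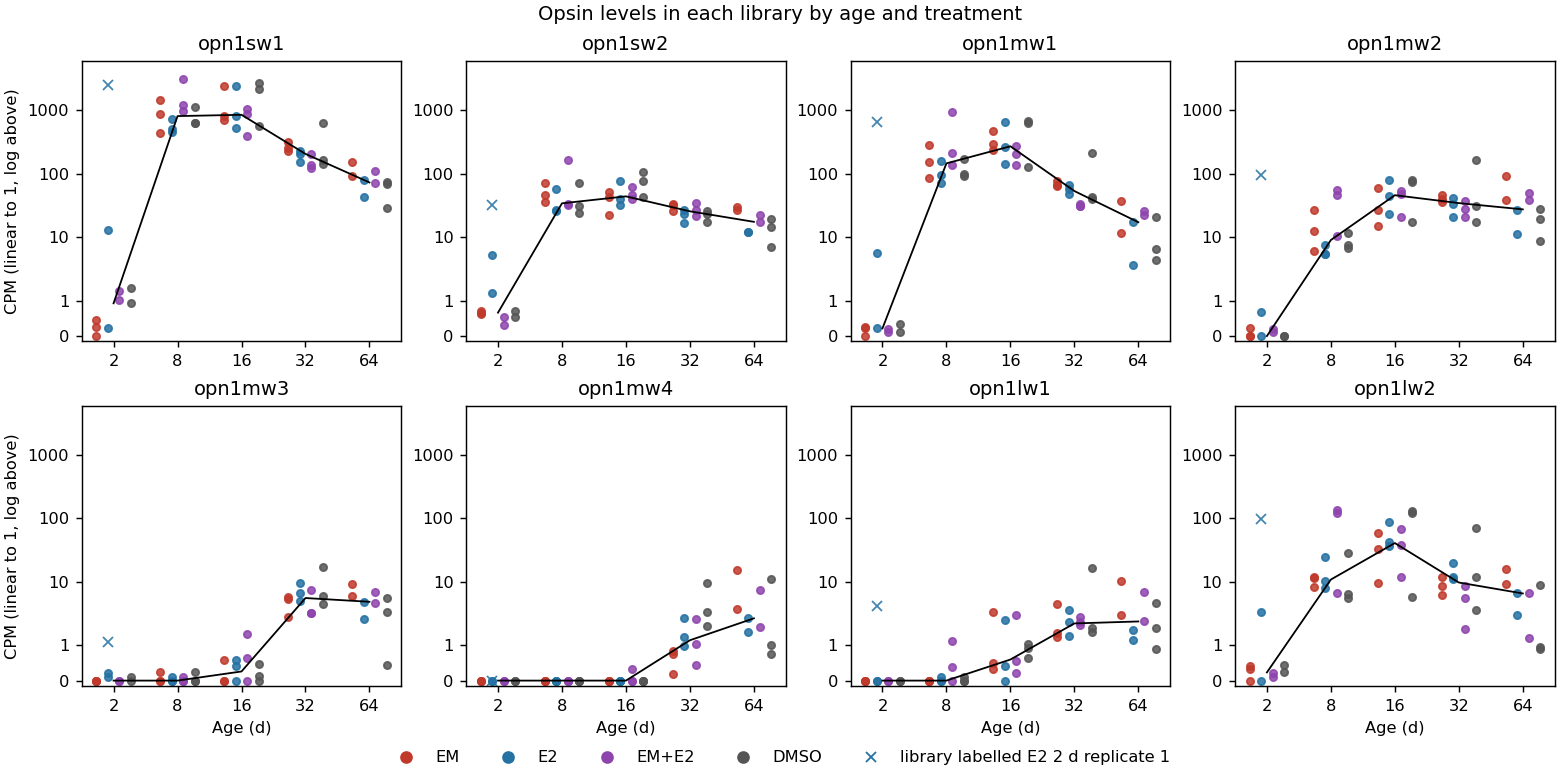
Level of each opsin (CPM, linear to 1 and logarithmic above) in each library against age (d), with 1 point per library, colours for the treatments and a line through the median of all libraries of an age without the library labelled E2 2 d replicate 1, drawn as a cross. The 5 opsins that come on first are up by 8 d, while the medians of opn1mw3, opn1mw4 and opn1lw1 at 16 d are 0.259, 0 and 0.598 CPM.

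The ultraviolet opsin opn1sw1 was near 0 at 2 d, with 0 to 1.61 CPM in 8 of 9 libraries and 12.9 CPM in E2 replicate 3. Its median over all treatments was highest at 16 d, at 854 CPM, and in recovered reads at 8 d. In DMSO libraries opn1sw1 held 0.929 and 1.61 CPM at 2 d, 1138, 625 and 634 CPM at 8 d, 2212, 2686 and 575 CPM at 16 d, 168, 640 and 141 CPM at 32 d, and 69.4, 73.3 and 29.4 CPM at 64 d. The level was thus highest in larvae, and no DMSO library of 64 d reached the lowest of 32 d. Libraries of a group could differ widely. In EM+E2 at 8 d opn1sw1 held 3149, 979 and 1220.5 CPM, and in E2 at 16 d it held 2440, 817 and 525 CPM. The 2440 CPM belongs to E2 16 d replicate 1, the best match of the library that goes against its label. That library stood apart from its own group too, with r = 0.866 and 0.851 with its replicates. The blue opsin opn1sw2 held 71.1, 23.8 and 30.9 CPM in DMSO at 8 d and 19.2, 14.7 and 7.03 CPM in DMSO at 64 d. Over all treatments its median was highest at 16 d, at 44.3 CPM.

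Among the green opsins, opn1mw1 and opn1mw2 were on by 8 d. In DMSO libraries opn1mw1 held 0.348 and 0.107 CPM at 2 d, 171, 92.5 and 98.6 CPM at 8 d, 675, 624 and 127 CPM at 16 d, 39.6, 217 and 43.1 CPM at 32 d, and 20.8, 6.48 and 4.42 CPM at 64 d. Over all treatments the median of opn1mw1 was highest at 16 d, at 273 CPM. The DMSO libraries of 8 and 16 d overlapped, and in EM+E2 the median was 217 CPM at 8 d and 209 CPM at 16 d. In DMSO libraries opn1mw2 had no read at 2 d and held 11.7, 7.56 and 6.82 CPM at 8 d, 74.9, 79.7 and 17.4 CPM at 16 d, 30.9, 165 and 17.7 CPM at 32 d, and 27.6, 19.4 and 8.73 CPM at 64 d. From 16 d on the DMSO groups of opn1mw2 overlapped in raw counts. Recovered reads gave at most 26.0 CPM of opn1mw2 in any library of 32 d, so the 165 CPM is not seen there. Over all treatments the median of opn1mw2 was highest at 16 d in raw counts, at 46.2 CPM. In recovered reads it was highest at 32 d, at 22.7 CPM.

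The later green opsins were all but absent from larvae. At 2 and 8 d opn1mw4 had no read in any of 9 and 12 libraries, which allows up to 0.0403 and 0.0280 CPM over the libraries of those ages. At 16 d it had 3 reads in all, in EM+E2 replicate 3. In DMSO libraries opn1mw4 then held 3.39, 9.56 and 1.99 CPM at 32 d and 11.0, 0.744 and 1.02 CPM at 64 d. In DMSO libraries opn1mw3 held 0.463, 0.117 and 0 CPM at 16 d, 6.07, 17.3 and 4.54 CPM at 32 d, and 5.52, 3.40 and 0.454 CPM at 64 d. For opn1mw3 every library of 32 d, from 2.77 to 17.3 CPM, lay above every library of 16 d, the highest of which was EM+E2 replicate 3 with 1.54 CPM.

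The red opsins came on one after the other. In DMSO libraries opn1lw2 held 0.232 and 0.429 CPM at 2 d, 28.9, 5.48 and 6.46 CPM at 8 d, 133, 123 and 5.75 CPM at 16 d, 11.9, 71.7 and 3.66 CPM at 32 d, and 9.02, 0.956 and 0.907 CPM at 64 d. In recovered reads the same libraries of opn1lw2 held 133, 54.6 and 47.9 CPM at 8 d and 29.1, 15.9 and 4.77 CPM at 64 d. Both tables had the highest median of opn1lw2 at 16 d. For opn1lw1 the 9 libraries of 2 d had no read, the DMSO libraries held 0.116, 0 and 0 CPM at 8 d and 1.04, 0.933 and 0.651 CPM at 16 d, and they held 1.65, 16.7 and 1.88 CPM at 32 d and 1.91, 4.68 and 0.907 CPM at 64 d. Its median over all treatments was 0.598 CPM at 16 d, 2.22 CPM at 32 d and 2.38 CPM at 64 d. In recovered reads the medians of opn1lw1 at those ages were 1.25, 6.59 and 19.4 CPM, so how far it differed between 32 and 64 d depends on the table.

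The step from embryo to feeding larva was tested within each treatment with edgeR's quasi-likelihood test, with p-values adjusted over all genes by the Benjamini-Hochberg method and a threshold of 0.05. In DMSO, 4 of 8 cone opsins rose between 2 and 8 d, and 0 fell, where 10.4% of all 22148 genes tested rose and 11% fell. The log2 fold changes of 8 over 2 d were 9.14 (SE 1.40, adjusted p = 0.000557) for opn1sw1, 8.79 (SE 1.65, adjusted p = 0.00214) for opn1mw1 and 5.87 (SE 0.81, adjusted p = 0.000246) for opn1sw2. The rise of opn1mw2 passed too (adjusted p = 0.0150), and since it had no read at 2 d, the 227 reads of 8 d put it at least 52.0-fold higher against 3 counts over the group. The rise of opn1lw2, at 5.14 (SE 2.03), missed the threshold in raw counts (adjusted p = 0.0874) and passed it in recovered reads at 5.29 (SE 1.49, adjusted p = 0.0186).

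The same step held in libraries that share no sample with DMSO. In EM, 5 of 8 opsins rose (17.3% of genes tested did, and 13.3% fell), with log2 fold changes of 11.82 for opn1sw1, 9.91 for opn1mw1, 6.23 for opn1sw2 and 5.37 for opn1lw2. The fifth was opn1mw2, with 407 reads at 8 d against 2 at 2 d. In EM+E2, 5 of 8 opsins rose as well (18.2% of genes tested did, and 14.4% fell). Among them opn1sw1 rose by 10.54 and opn1sw2 by 7.49. The rises of 7.80 for opn1mw2 and 9.02 for opn1lw2 rest on 3 reads each at 2 d. Their ratios were 234 and 542, with 95% counting intervals of 79.8 to 1136 and 185 to 2631. There opn1mw1 had 11742 reads at 8 d against 3 at 2 d, a ratio of 2790 with a 95% counting interval of 954 to 13530. In E2, 0 of 8 opsins passed with the library labelled E2 2 d replicate 1 in edgeR, and likewise in DESeq2 and in recovered reads. In edgeR on raw counts 2 had an unadjusted p under 0.05, and 7.77% of genes passed the adjusted threshold in either direction. Without that library 4 rose (6.26% of genes did, and 6.3% fell), namely opn1sw1 by 6.65 (SE 1.27, adjusted p = 0.00575), opn1mw1 by 5.40 (SE 1.15), opn1mw2 by 4.02 (SE 0.91) and opn1sw2 by 3.61 (SE 0.71).

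Genes that work beside the opsins moved at the same step. In DMSO, 17 of 23 genes of the cone phototransduction list rose and 0 fell between 2 and 8 d, with a median log2 fold change of 5.25 where that of all genes was 0.05. Among them were GRK7, the kinase that turns off cone pigments, by 8.03, both genes listed as ARR3, cone arrestins, by 6.70 and 7.93, and cngb3.2, a cone channel subunit, by 7.08. Of the rod phototransduction list 9 of 18 rose and 0 fell, with a median of 3.46, including the arrestin saga by 4.31 and the channel subunit cngb1a by 6.43. Of the outer segment list 12 of 21 rose and 0 fell, with a median of 3.42, including PRPH2, a protein of disc rims, by 7.26 and rp1l1b by 9.32. Of the visual cycle list 7 of 22 rose and 0 fell, with rbp3, which carries retinoids between cells, up by 7.27. Of the photoreceptor transcription factors 0 of 20 rose and 2 fell, otx2a by 3.39 and OTX2 by 3.51.

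Other cell types were counted at that step too, where 10.4% of all genes tested rose in DMSO and 11% fell. Of the retinal interneuron and Müller glia list 6 of 32 rose and 3 fell in DMSO, of the lens list 2 of 30 rose and 1 fell, and of the brain list 6 of 33 rose and 5 fell. Of the pigment cell list 0 of 11 rose and 4 fell, of the pineal list 2 of 9 rose, and of the other (non-visual) opsins 1 of 17 rose. The oocyte list had 0 higher and 2 lower of 26, and the thyroid hormone axis 3 higher and 1 lower of 13. These members were picked from knowledge of cell types with earlier results of these data known. The pineal organ also holds photoreceptors, and its part in the opsin reads of whole fish was not tested.

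**Figure D2:**
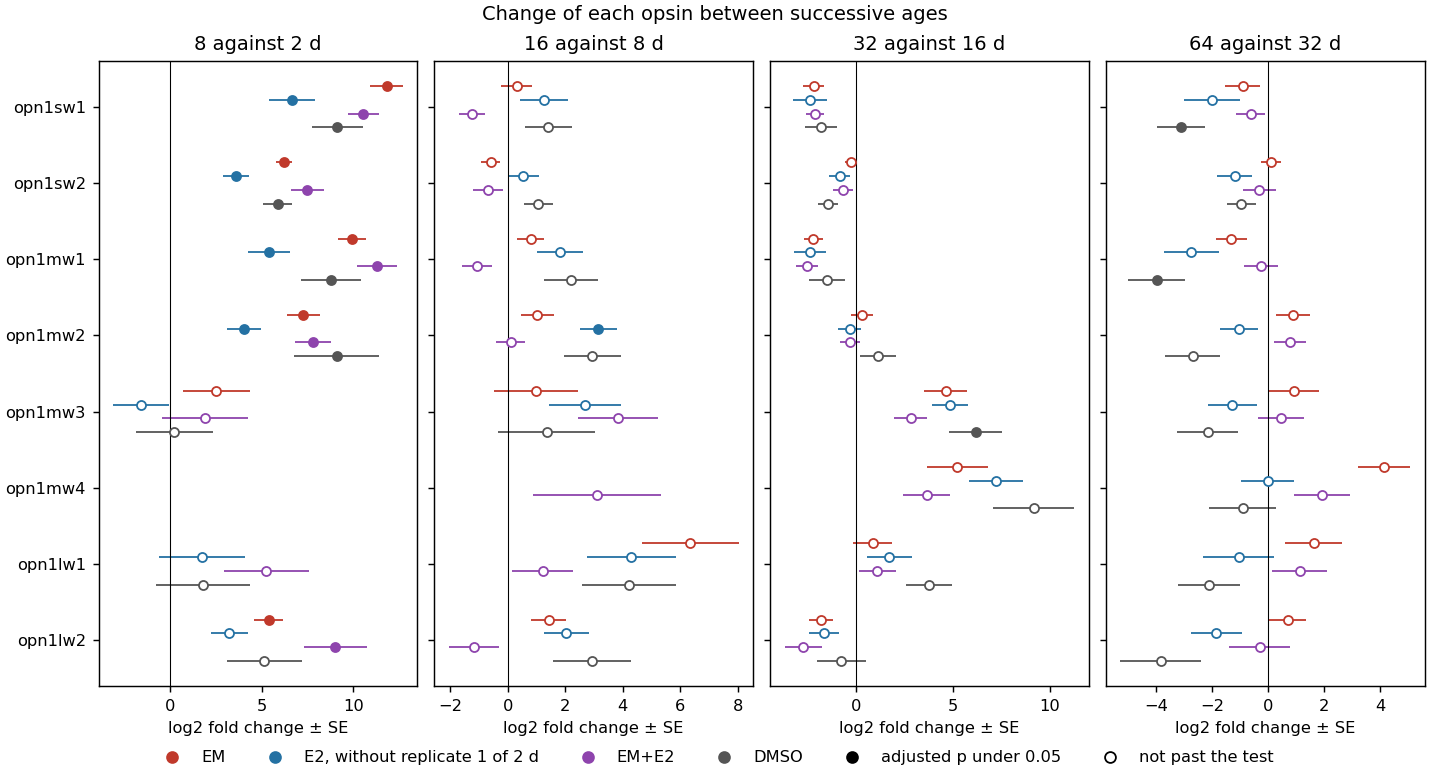
Log2 fold change of the later over the earlier age (± SE, edgeR) for each opsin in each treatment, with 1 panel per step and filled points where the adjusted p was under 0.05. E2 is drawn without its library labelled 2 d replicate 1, and points for an opsin with 3 or fewer reads in 1 group are no bound. Filled points are dense in the first panel, where the opsins of larvae rise, and few in the other 3.

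Between 8 and 16 d no opsin passed in any of the 4 treatments in the reported edgeR fits on raw counts. At an unadjusted p under 0.05 there were 2 of 8 in EM, 0 in E2, 2 in EM+E2 and 4 in DMSO, while DESeq2 called 1 in EM, 0 in E2, 2 in EM+E2 and 1 in DMSO. Of all genes, counting both directions, 2.2% passed the adjusted threshold of edgeR in EM, 0.765% in E2, 28.9% in EM+E2 and 4.62% in DMSO. On recovered reads edgeR called 1 opsin higher in EM, 1 higher in DMSO, 1 lower in EM+E2 and 0 in E2. Without DMSO 32 d replicate 2, edgeR on raw counts called 2 in DMSO at this step. No share of all genes is given for these fits, for DESeq2 or for the unadjusted p. Without the library labelled E2 2 d replicate 1, opn1mw2 rose in E2 by 3.15 (SE 0.65, adjusted p = 0.0309), where 1.4% of genes rose and 0.241% fell. In recovered reads without that library it missed the threshold (2.16, adjusted p = 0.109, edgeR). Between 16 and 32 d opn1mw3 rose in DMSO, by 6.16 on the log2 scale (SE 1.38, adjusted p = 0.0348), 1 of 8 opsins where 1.68% of genes rose and 0.316% fell. That call was lost when any single DMSO library of 8 or 16 d was left out, and likewise for replicate 1 or 2 of 32 d and replicate 1 of 64 d, with log2 fold changes of 4.67 to 7.77 over these. It passed in recovered reads (6.11, adjusted p = 0.0217) and in DESeq2. The rise of opn1mw4 missed the threshold (adjusted p = 0.0770, edgeR). It had 121 reads at 32 d against 0 at 16 d in DMSO, at least 40.9-fold higher, while E2 gave at least 15.3-fold, EM at least 4.01-fold, and EM+E2 a ratio of 12.0 with an interval of 3.79 to 60.9. In EM, E2 and EM+E2 no opsin passed between 16 and 32 d in the reported edgeR fits on raw counts. There 0.316%, 0.0534% and 0.47% of genes passed in either direction. At an unadjusted p under 0.05 there were 5, 2 and 5 opsins, and DESeq2 called 3, 2 and 3. The larval opsins opn1sw1 and opn1mw1 lay lower at 32 than at 16 d in each of the 4 treatments. Their log2 fold changes were -1.83 to -2.34 for opn1sw1 and -1.52 to -2.55 for opn1mw1. The reported edgeR fits on raw counts called neither. DESeq2 called both lower in EM and in EM+E2, and edgeR on recovered reads called both lower in EM+E2. Without DMSO 32 d replicate 2, the library that stood apart, edgeR on raw counts called 2 of 8 opsins at this step in DMSO, opn1mw3 not among them. No share of all genes is given for that fit, so the count has no background. The same holds at this step for DESeq2, recovered reads and the unadjusted p.

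At the same step 5 of 30 lens genes rose in DMSO and 0 fell, crygm3 by 6.31, CRYBB2 by 7.53, CRYBB3 by 5.50 and CRYAB, each a crystallin, by 6.07. The median log2 fold change was 1.02 over the rod list and -0.36 over the cone list, where that of all genes was 0.03. Of the oocyte list 18 of 26 rose. The thyroid hormone axis, whose receptor thrb is needed for red cones in zebrafish, had 1 of 13 genes higher, DIO2, an enzyme that activates the hormone, by 2.72 (SE 0.62).

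Between 32 and 64 d, 2 of 8 opsins fell in DMSO and 0 rose (10.8% of genes fell and 10.4% rose). The log2 fold changes were -3.98 (SE 1.01, adjusted p = 0.0146) for opn1mw1 and -3.11 (SE 0.87, adjusted p = 0.0223) for opn1sw1, where the median of all genes was -0.31. These falls rest on DMSO 32 d replicate 2, which held 217 CPM of opn1mw1 against 39.6 and 43.1 CPM in the other 2. Without it 0 opsins passed, with -1.65 for opn1mw1 and -1.10 for opn1sw1, while leaving out replicate 3 of 64 d gave 0 calls, replicate 1 or 2 of 64 d gave 1 and replicate 3 of 32 d gave 4. In EM, E2 and EM+E2 0 opsins passed in either direction at this step, in edgeR and in DESeq2. In edgeR 2, 0 and 0 had an unadjusted p under 0.05. The adjusted threshold was passed there by 0.227%, 1.16% and 0.593% of genes in either direction. The difference between the EM and the DMSO step was tested, after the data were seen, in 1 fit of all libraries. It passed for 0 of 8 opsins, with adjusted p from 0.0785 to 0.463 (edgeR), where 4.95% of genes passed in either direction. At an unadjusted p under 0.05 there were 5 of 8 opsins, and 5105 of all 23945 genes.

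Many lists fell together in DMSO between 32 and 64 d. Of the brain list 1 of 33 rose and 25 fell, of the lens list 17 of 30 fell, of the interneuron and glia list 1 of 32 rose and 13 fell, and of the cone and rod phototransduction lists 5 of 23 and 6 of 18 fell. Of the oocyte list 20 of 26 rose, with a median of 4.52, and its summed level was 5124 to 12842 CPM in DMSO at 64 d, against 73 to 615 CPM at 32 d. Reads of oocyte genes thus made up a larger share of the pooled RNA where the opsin shares were lower. Its part in the opsin change was not tested.

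Within the green and red families the shares of the copies shifted with age. A share here is a share of the family's reads in a library, not of molecules per length. Of green opsin reads, opn1mw1 had a median of 93.2% at 8 d, 88.7% at 16 d, 58.0% at 32 d and 28.4% at 64 d, and the libraries of 64 d ranged between 18.4% and 33.8%. The share of opn1mw2 had medians of 6.84%, 11.3%, 35.8% and 57.4% at those 4 ages. The later copies made up little until 32 d, when opn1mw3 had a median of 5.46% and opn1mw4 of 1.5%, and at 64 d they had 8.50% and 6.98%. In recovered reads opn1mw1 had 95.3%, 94.0%, 68.2% and 40.6%, and opn1mw2 had 4.72%, 5.93%, 23.3% and 40.5%. Both tables thus moved the same way, while opn1mw2 had more reads than opn1mw1 at 64 d in the raw counts and about as many in the recovered reads.

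Of red opsin reads, opn1lw1 had a median of 0% at 8 d, 1.02% at 16 d, 18.1% at 32 d and 29.3% at 64 d. In recovered reads the medians were 0.157%, 0.658%, 16.9% and 38.5%. At 64 d the raw share ranged between 17.5% and 84.2%, and the recovered share between 21.7% and 44.4%, so the raw share of single libraries was the less steady.

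**Figure D3:**
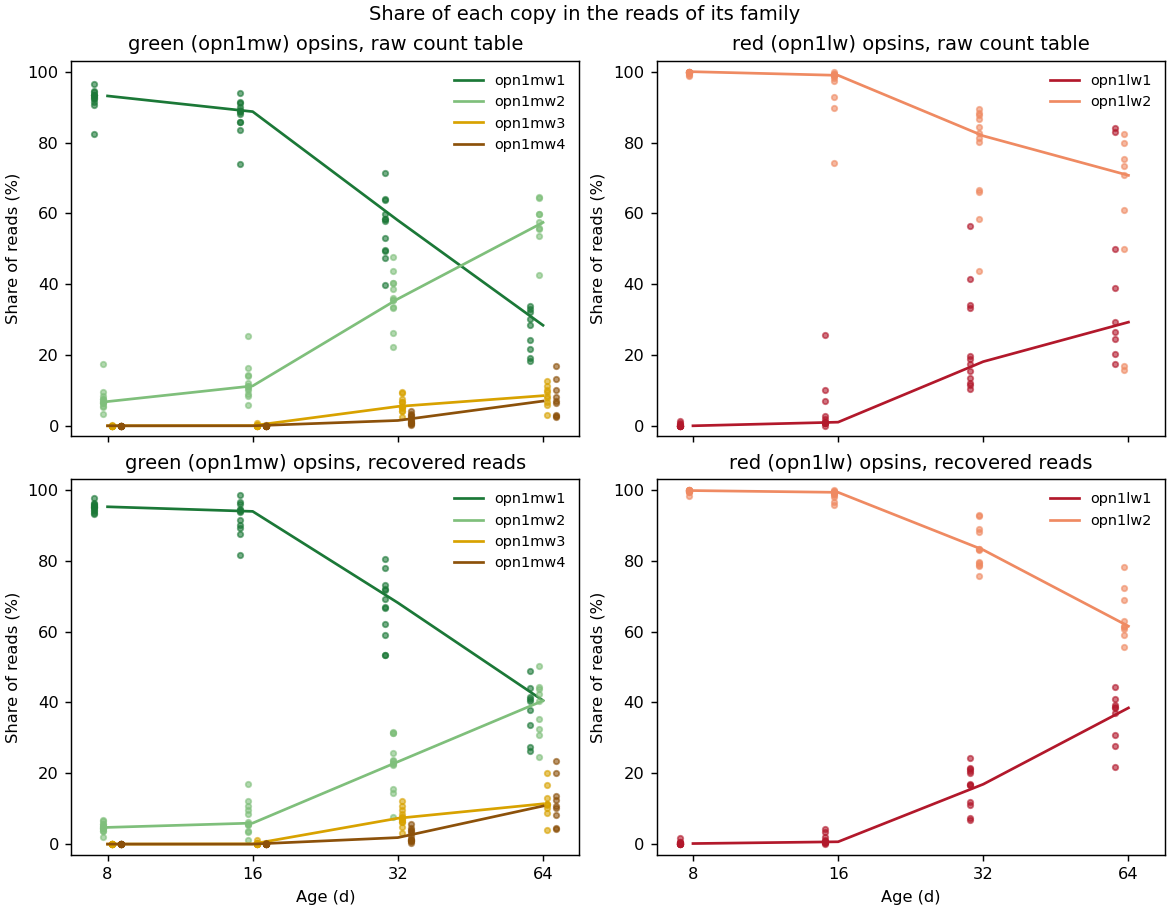
Share of each copy (percent of the reads of its family) against age (d), for the green opsins and the red opsins, from raw counts and from recovered reads, with points for libraries and lines for medians. The share of opn1mw1 has a median of 93.2% at 8 d and 28.4% at 64 d in raw counts, and opn1lw1 has medians of 0% at 8 d and 1.02% at 16 d in raw counts.

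Ratios within a library were tested between successive ages over all treatments, as the difference in the log2 ratio with 0.5 added to each count. The tests were exact permutation tests, 2-sided, with ages exchanged within each treatment and p-values adjusted over 20 tests of 5 ratios. From 8 d on, opn1mw2 gained on opn1mw1 at each step, by 0.79 between 8 and 16 d (adjusted p = 0.00653, exact permutation test), by 2.27 between 16 and 32 d (adjusted p = 8.33e-05, exact) and by 1.77 between 32 and 64 d (adjusted p = 0.000111, exact). The gain between 8 and 16 d missed the threshold in recovered reads (0.44, adjusted p = 0.223, exact) and without the libraries of replicate 2 (0.79, adjusted p = 0.0617, exact). The log2 ratio was 1.11 ± 0.46 at 64 d (SD, n = 9) and -0.64 ± 0.52 at 32 d (SD, n = 12), and the libraries of those ages did not overlap. For opn1mw2 over opn1mw1 the unadjusted p was 1.25e-05 between 16 and 32 d and 5e-05 between 32 and 64 d, the smallest that the 160000 and 20000 arrangements can give. Between 16 and 32 d opn1mw3 gained 7.04 and opn1mw4 6.71 on opn1mw1 (each adjusted p = 8.33e-05, exact), again with no overlap, and between 32 and 64 d they gained 1.59 (adjusted p = 0.000615, exact) and 3.24 (adjusted p = 0.000111, exact). At 16 d opn1mw4 had 3 reads in all, in 1 of 12 libraries, and opn1mw3 had reads in 7 of 12, so both gains between 16 and 32 d depend on the 0.5 added and are not measured folds. With 1 added they were 6.54 for opn1mw3 and 5.87 for opn1mw4. Up to 16 d their reads were too few to follow.

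The red pair moved likewise. The log2 ratio of opn1lw1 over opn1lw2 was -1.84 ± 1.08 at 32 d and -5.72 ± 2.17 at 16 d (SD, n = 12 each), a gain of 3.88 (adjusted p = 0.000175, exact permutation test). The gains of 1.56 between 8 and 16 d and of 1.28 between 32 and 64 d were smaller (each adjusted p = 0.0415, exact). The first missed the threshold without the libraries of replicate 1 (1.58, adjusted p = 0.166, exact) or replicate 3 (0.63, adjusted p = 0.334, exact), and the second without those of replicate 2 (1.05, adjusted p = 0.182, exact) or replicate 3 (1.22, adjusted p = 0.167, exact). The first also missed it with 1 added (1.00, adjusted p = 0.168, exact) and with replicate number as a block (adjusted p = 0.0643, exact). With the tests limited to libraries with 10 or more reads in the pair, both missed it (each adjusted p = 0.0542, exact). Both passed in recovered reads (adjusted p = 0.0217 and 9.09e-05, exact). Between 16 and 32 d each of these 4 ratios was higher in all 4 treatments.

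The short-wave opsins shifted in the other direction. The log2 ratio of opn1sw1 over opn1sw2 was 3.06 ± 0.78 at 32 d and 4.42 ± 1.04 at 16 d (SD, n = 12 each), a difference of -1.36 (adjusted p = 0.00164, exact permutation test). Without the libraries of replicate 1 it was -0.82 and missed the threshold (adjusted p = 0.0540, exact). Between 32 and 64 d the difference was -0.92 (adjusted p = 0.000111, exact), with 2.14 ± 0.30 at 64 d (SD, n = 9). In recovered reads, which hold more opn1sw2, the differences were -0.86 and -0.25, so their size depends on the table.

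Over the whole set the median share of the ultraviolet opsin was lower at each later age from 8 d on. Of all cone opsin reads opn1sw1 had a median of 79.5% at 8 d, 69.6% at 16 d, 59.6% at 32 d and 48.2% at 64 d. The share of opn1mw2 had medians of 1.04%, 2.38%, 9.83% and 18.2% at those 4 ages, and that of opn1sw2 4.08%, 4.06%, 8.15% and 11.7%. The share of opn1mw1 was highest at 16 d, with medians of 13.5%, 20.3%, 16.0% and 10.2%. In recovered reads opn1sw1 had 67.0%, 55.1%, 46.6% and 38.3%, opn1mw2 had 0.637%, 1.15%, 4.54% and 7.56%, and opn1sw2 had 11.3%, 13.3%, 19.9% and 20.2%. Both tables thus shifted the same way between 8 and 64 d, at levels that differed between them. At 2 d only 6 libraries had 10 or more cone opsin reads, and the median share of opn1sw1 in them was 50.8%.

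**Figure D4:**
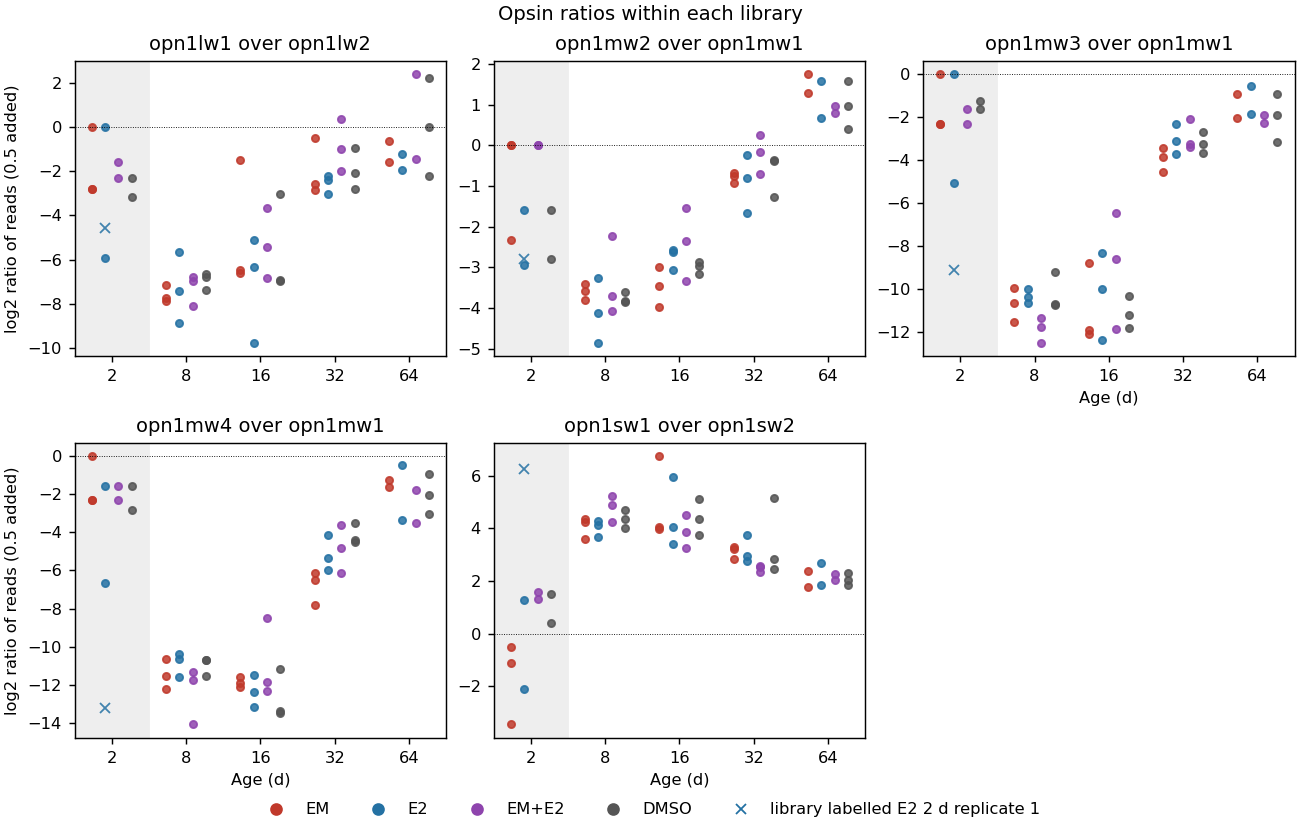
Log2 ratio of reads within each library for 5 pairs of opsins against age (d), with 1 point per library and colours for the treatments, and the age of 2 d shaded because most of its ratios rest on few reads. The ratio of opn1mw2 over opn1mw1 averages 1.11 at 64 d and -0.64 at 32 d, with no overlap.

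At 64 d exemestane was compared with the solvent. Of the 8 opsins 1 was higher in EM than in DMSO and 0 lower, where 13.6% of all genes were higher and 17.6% lower, so the share is near that of all genes. The green opsin opn1mw2 held 38.7 and 92.2 CPM in EM, against 27.6, 19.4 and 8.73 CPM in DMSO. Both EM libraries lay above all 3 DMSO libraries. The log2 fold change was 1.70 (SE 0.55, adjusted p = 0.0398, edgeR). In recovered reads opn1mw2 held 25.2 and 53.5 CPM in EM, against 11.6, 5.31 and 5.10 CPM in DMSO. The other 7 opsins had log2 fold changes of 0.96 to 1.71 without passing, where the median of all genes was 0.21. Of these, opn1sw1 held 92.2 and 156 CPM in EM, against 69.4, 73.3 and 29.4 CPM in DMSO, and opn1sw2 held 26.7 and 30.0 CPM in EM, against 19.2, 14.7 and 7.03 CPM in DMSO. For opn1sw1, opn1sw2, opn1mw2, opn1mw3 and opn1lw2 both EM libraries lay above all 3 DMSO libraries, and for opn1mw1, opn1mw4 and opn1lw1 the groups overlapped. How many of all genes stood apart in this way was not counted, so the number of opsins cannot be set against a background.

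The call of opn1mw2 was lost under several alternatives. It did not pass with another scaling (RLE, adjusted p = 0.0609), nor without EM replicate 1, EM replicate 2, E2 replicate 1, DMSO replicate 2 or DMSO replicate 3 of that age, with log2 fold changes of 1.02 to 2.17 over these 5. It also missed with replicate number as a block (adjusted p = 0.0792), with library number as a block (adjusted p = 0.0605) and with all libraries in 1 fit (adjusted p = 0.230). Of 18 alternatives, 7 kept the call. It passed in recovered reads (2.23, adjusted p = 0.00881) and in DESeq2 (1.54, adjusted p = 0.0295). Without DMSO 64 d replicate 1, 3 opsins passed, with no share of all genes given for that fit. The contrast of both exemestane groups with both others at 64 d (the EM factor) also called 1 of 8 opsins higher (7.72% of genes were, and 15.7% lower), opn1mw2 by 1.49 (SE 0.41, adjusted p = 0.0288, edgeR). It called 0 without EM 64 d replicate 2, E2 64 d replicate 2 or EM+E2 64 d replicate 1, 2 without DMSO 64 d replicate 2 or replicate 3, and 3 without DMSO 64 d replicate 1. These 2 contrasts share libraries.

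Other cells moved with that comparison. Oocyte genes summed to 22.8 and 32.2 CPM in EM, against 12842, 5124 and 8810 CPM in DMSO, with 25 of 27 lower. Brain genes summed to 2358 and 2849 CPM in EM, against 1351, 1265 and 1760 CPM in DMSO, with 14 of 32 higher and 1 lower. Lens genes summed to 1837 and 1580 CPM in EM, against 580, 1243 and 699 CPM in DMSO, with 5 of 26 higher. The rod list had a median log2 fold change of 0.57 and the cone list one of 0.17. The part of the oocyte and brain shares in the opsin difference was not tested.

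In E2 and in EM+E2 edgeR on raw counts called no opsin at 64 d. In EM+E2 opn1mw2 held 50.8 and 39.4 CPM, above the DMSO values given, with a log2 fold change of 1.20 (SE 0.55, adjusted p = 0.120, edgeR). There edgeR had 0 of 8 at an unadjusted p under 0.05, and DESeq2 also called 0. In edgeR 30.5% of genes passed the adjusted threshold in either direction. In recovered reads opn1mw2 held 31.0 and 24.7 CPM in EM+E2, against 11.6, 5.31 and 5.10 CPM in DMSO, and was called higher by 1.76 (SE 0.52, adjusted p = 0.0236, edgeR). With library number as a block the raw counts also called it (1.66, adjusted p = 0.0391, edgeR). In E2 opn1mw2 held 27.4 and 11.2 CPM, within the range of DMSO, with 0 of 8 called by edgeR or DESeq2. In edgeR 0 had an unadjusted p under 0.05, and 0.00468% of genes passed the adjusted threshold.

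**Figure D5:**
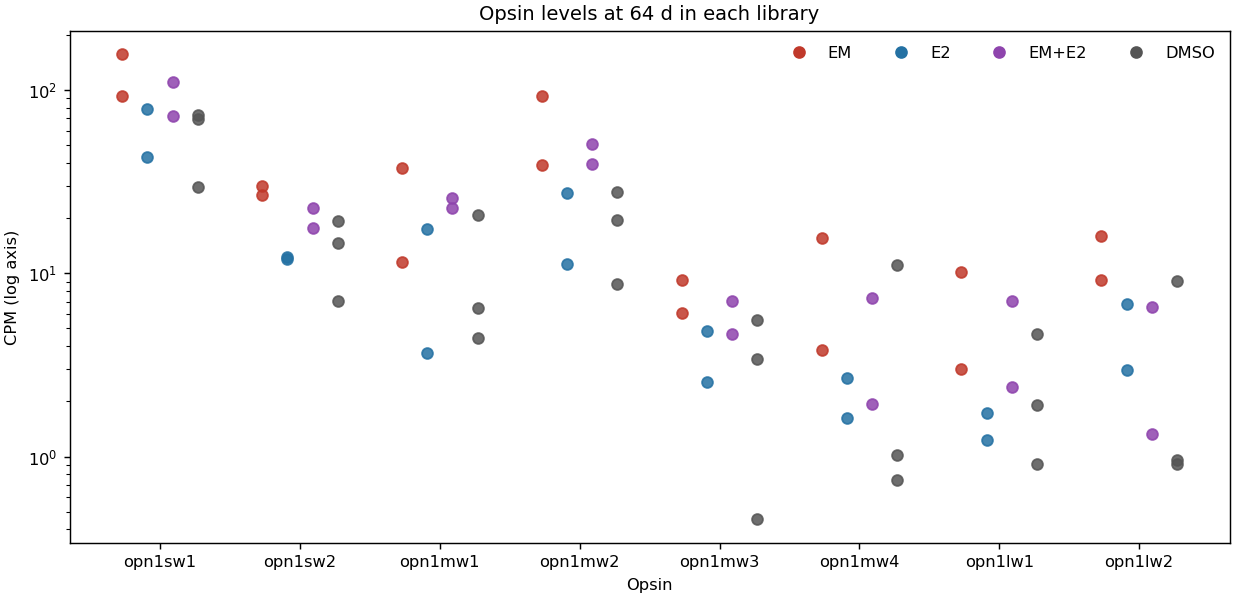
Level of 8 cone opsins at 64 d (CPM, logarithmic axis) in each library of EM, E2, EM+E2 and DMSO. For opn1mw2 both EM libraries, at 38.7 and 92.2 CPM, stand above the DMSO libraries, at 8.73 to 27.6 CPM, while for opn1mw1, opn1mw4 and opn1lw1 the groups overlap.

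At 2, 8, 16 and 32 d the reported edgeR fits on raw counts called 0 opsins in any contrast of a treatment with DMSO. Of all genes, 0% passed in the majority of contrasts. The others had 0.0152% in EM+E2 at 2 d, 0.00493% in EM+E2 at 8 d, 0.217% in EM at 32 d and 0.25% in EM+E2 at 32 d. At an unadjusted p under 0.05 there were 4 of 8 in EM at 32 d, 7 of 8 in EM+E2 at 32 d and 1 of 6 tested in EM at 16 d. There were also 4 of 5 tested in EM+E2 at 8 d, and 4 of 4 tested in E2 at 2 d. That E2 group holds the library labelled E2 2 d replicate 1. DESeq2 called 1 opsin in EM at 32 d and 1 in EM+E2 at 8 d. No share of all genes is given here for DESeq2 or for the unadjusted p, so these counts have no background. The contrasts of 32 d share DMSO replicate 2, described above. Across ages, 0 of 10 tests of a ratio by exposure passed. The lowest p was that of opn1mw2 over opn1mw1 with exemestane, where the log2 ratio averaged -1.44 with it and -1.86 without it, was higher in 7 of 10 strata of age and estradiol, and differed by 0.55 within strata (permutation test, adjusted p = 0.109). In recovered reads that ratio differed by 0.80 and passed (permutation test, adjusted p = 0.0222). Where the pair had 10 or more reads it differed by 0.21 and was higher in 5 of 8 strata (permutation test, adjusted p = 0.632).

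Over the 55 libraries the genes most alike to each opsin were found by Pearson's r of log2 (CPM + 0.5) among 19782 genes. The points share libraries, depth and age, so the values are a description. The correlations come from raw counts alone, which differ most from recovered reads for opn1mw2, opn1sw2, opn1lw1 and opn1lw2. For opn1sw1 the closest was GNAT2 (r = 0.982), the cone transducin, and for opn1mw1 grk1b (0.975). For opn1mw2 the closest was GNAT1 (0.955), the rod transducin, before rom1a (0.923), a disc rim protein. For opn1lw2 it was grk1b (0.890) and for opn1sw2 rbp3 (0.955). The late copies were closest to other genes, opn1mw3 to the lens crystallin CRYBB2 (0.945), opn1mw4 to CRYAB (0.901) and opn1lw1 to gatd3l (0.877). Among the opsins, opn1sw1 and opn1mw1 had r = 0.981, opn1mw1 and opn1lw2 0.903, opn1mw3 and opn1mw4 0.876, opn1mw3 and opn1lw1 0.862, and opn1mw1 and opn1mw4 -0.0892.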

How the data were processed

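RNA was measured by stranded sequencing of polyadenylated RNA from whole-fish pools. Per the submitters' processing notes, the tools were HISAT2 2.0.5 and HTSeq 0.9.1 on build GRCz11, besides Picard, SAMtools 1.5, MultiQC 0.9 and FastQC 0.11.8. The authors deposited a table of raw counts per gene and a normalized table, whose values are of the kind signal, counts divided by a factor per library as deposited. Whole reads were recovered from the latter (100% of values were whole multiples within 0.01) and used as an alternative. The raw column of EM+E2 2 d replicate 2 held the values of replicate 3 of EM+E2 at 16 d in each of 32520 rows and was left out. The opsins and all gene lists were chosen with earlier results of these data known, and 1 gene of the list sought is not reported here.

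Tests used edgeR 4.0.16 in R 4.3.3 (TMM scaling, filterByExpr at its defaults of 10 reads and 15 in total, quasi-likelihood F test, Benjamini-Hochberg adjustment over all genes tested, threshold 0.05), with the 5 ages of a treatment in 1 fit and the 4 treatments of an age in another. Groups follow the labels. Shares of genes that passed are from edgeR on raw counts at the adjusted threshold. They are thus no background for counts at an unadjusted p, from DESeq2 or from an alternative whose own share is not given. Ratios were tested by permutation with numpy 2.4.6 in Python 3.11.15, and scipy 1.17.1 gave the counting intervals. Alternatives were DESeq2 1.42.0, RLE scaling, no filter, recovered reads, blocks by replicate or library number, all libraries in 1 fit, each library left out, 1 added to each count, 10 or more reads in a pair, and DMSO alone. Fits without the library labelled E2 2 d replicate 1 or without DMSO 32 d replicate 2 were added after seeing the data. The test of the EM step against the DMSO step was added then too. Scripts were tested on simulated data. In DMSO counts simulated for 32 against 16 d, edgeR called 3.26% of log2 changes of 1.5 and 48.1% of those of 3. For EM against DMSO at 64 d it called 19.6% and 77.8%. Of the calls, 6.78% and 8.11% were false in these 2 comparisons. An opsin that did not pass is thus not shown to be unchanged. The named genes are the opsins, up to 4 genes of a list past the threshold with the smallest adjusted p, and the 3 genes most alike to each opsin (mean of at least 1 CPM). The floor for a count of 0 is 3 counts, and intervals are 95% and exact. Both cover counting error only, since reads are not independent molecules.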

Additional observations from a re-analysis of the deposited data

How the results depend on the processing

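Between 2 and 8 d the called rises in EM, EM+E2 and DMSO passed under each alternative run, except opn1mw2 in DMSO (21 of 23) and opn1lw2 in EM+E2 (10 of 12). Of the counts of called opsins or ratios under an alternative, 719 stayed within 1.5 times the reported count and 96 did not. A comparison without a call in both the reported test and the alternative also counts as having stayed. The 719 thus do not show how often a call was kept. The cause of a moved count was not tested.

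Among age steps, no filter gave 2 called opsins between 16 and 32 d in EM+E2 (0 reported) and 2 in DMSO (1 reported). DESeq2 gave 1 in EM, 2 in EM+E2 and 1 in DMSO between 8 and 16 d (0 reported in each), 3 in EM, 2 in E2 and 3 in EM+E2 (0 reported in each) and 3 in DMSO between 16 and 32 d, and 4 in DMSO between 32 and 64 d (2 reported). Recovered reads gave 1 in EM, EM+E2 and DMSO between 8 and 16 d, 2 in EM+E2 between 16 and 32 d and 4 in DMSO between 32 and 64 d. All libraries in 1 fit gave 2 in DMSO and 1 in E2 between 16 and 32 d. That fit without the library labelled E2 2 d replicate 1 gave in DMSO 1 between 8 and 16 d, 2 between 16 and 32 d and 4 between 32 and 64 d, and in E2 4, 1 and 1 for the first 3 steps. That fit without DMSO 32 d replicate 2 gave 2 in DMSO and 2 in E2 between 16 and 32 d, 0 in DMSO between 32 and 64 d and 1 in E2 between 2 and 8 d. Recovered reads without the library labelled E2 2 d replicate 1 gave 4 in E2 between 2 and 8 d and 1 between 16 and 32 d. Without that library alone E2 gave 4 and 1 for the first 2 steps, and without E2 16 d replicate 1 as well, 5 and 1. Leaving out 1 replicate gave in DMSO 0 to 2 between 8 and 16 d, 0 to 2 between 16 and 32 d and 0 to 4 between 32 and 64 d, in E2 0 to 4 between 2 and 8 d and 0 to 1 between 8 and 16 d, and in EM+E2 0 to 1 between 16 and 32 d.

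Among treatments, DESeq2 gave 1 opsin in EM+E2 and in the EM factor at 8 d, and in EM at 32 d (0 reported in each). All libraries in 1 fit gave 4 in E2 at 2 d, also without DMSO 32 d replicate 2, and 0 without the library labelled E2 2 d replicate 1. For EM against DMSO at 64 d (1 reported), RLE scaling gave 0, the replicate block 0, the library-number block 0 and all libraries in 1 fit 0 in its 3 versions. For EM+E2 at 64 d recovered reads and the library-number block gave 1 each (0 reported). The EM factor at 64 d (1 reported) gave 2 in recovered reads, with the replicate block and with the library-number block, and 0 with all libraries in 1 fit in its 3 versions. Leaving out 1 replicate gave 0 to 3 for EM at 64 d and 0 to 3 for the EM factor at 64 d.

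Among ratios, 5 were called between 2 and 8 d, but 1 with 10 or more reads in the pair, with or without the library labelled E2 2 d replicate 1, so only opn1sw1 over opn1sw2 can be read there. Between 8 and 16 d (2 called) there was 1 with 1 added, with 10 or more reads, also without that library, with the replicate block, and without each of the 3 replicates. DMSO alone gave 0 at each of the 4 steps, with too few libraries to pass. Recovered reads gave 1 ratio by exemestane (0 reported), opn1mw2 over opn1mw1, with or without the library labelled E2 2 d replicate 1.

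Directions turned in E2 between 2 and 8 d, where the log2 fold change was -0.63 for opn1sw1, -1.07 for opn1mw1, -2.47 for opn1mw2 and 1.47 for opn1sw2. Recovered reads gave -0.28 for opn1sw2 and 0.64 for opn1mw2. The replicate block gave 1.16 for opn1sw1 and 0.74 for opn1mw1, and the library-number block 1.55 and 0.78. For opn1sw1, opn1mw1 and opn1mw2 the values were 6.33, 4.92 and 4.02 without replicate 1 of each age, 6.65, 5.40 and 4.02 without the library labelled E2 2 d replicate 1, 6.61, 5.33 and 3.97 without E2 16 d replicate 1 as well, 6.32, 5.28 and 3.85 in recovered reads without the first, and 6.65, 5.38 and 4.01 with all libraries in 1 fit without the first. The lowest with 1 replicate left out were -1.22, -1.55 and -3.26. Between 8 and 16 d, opn1sw1 over opn1sw2 (0.11) was -0.41 in recovered reads, with or without the library labelled E2 2 d replicate 1, and -0.50 without replicate 1. There opn1mw3 over opn1mw1 (0.46) was -0.40 without replicate 3, up to 1.01 without replicate 1 and -0.91 in DMSO alone.

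Replicate numbers were not taken as pairs, since deviations of same-numbered libraries of an age had a median correlation of 0.00910 (29 of 78 pairs over 0.1). Runs of library numbers gave 0.0453 within an age (31 of 76) and 0.153 between successive ages of a treatment (24 of 43), against -0.0579 for other pairs. With few reads at 2 d, and for opn1mw4 and opn1lw1 at each age, depth limits what can be told.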
